A study of Mus musculus with 4 samples.

Results

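Annexins and S100 proteins are calcium-dependent regulators of membranes and the cytoskeleton, and 10 of their genes were followed through the immune cells of the mouse peritoneal cavity. The members were 5 annexin genes (Anxa1, Anxa2, Anxa4, Anxa5 and Anxa6), 4 S100 genes (S100a4, S100a6, S100a10 and S100a11) and Ahnak, chosen by symbol from the 32285 genes of the expression matrices. All 10 symbols were found in both expression libraries, and all 10 passed the low-count filter of every test below. CD45+ cells sorted from peritoneal lavage fluid were sequenced with 10x Genomics droplets. The WT group (wild-type mice on a high-fat diet from 4 weeks of age for 3 months) and the KO group (knockout mice on the same diet) each gave 1 expression library and 1 B-cell receptor library. Every mouse was therefore on the high-fat diet, and the sources used here do not say how many mice went into each library. With 1 library per genotype there was no replicate, so KO to WT ratios below are differences between 2 libraries and carry counting error only.

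Annexins bind negatively charged phospholipids when calcium is present and take part in membrane repair, vesicle traffic and the anchoring of membranes to actin. S100 proteins are small EF-hand dimers that bind other proteins on calcium binding: S100a10 pairs with annexin A2 at the plasma membrane, S100a11 binds annexin A1, S100a6 is known as calcyclin, and S100a4 binds non-muscle myosin. Ahnak is a giant scaffold protein that is recruited by the annexin A2 and S100a10 complex, and several of these genes are familiar marks of activated, memory or innate-like lymphocytes.

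The 250 bases upstream of the start site are shown for the 3 members with the highest B-1 to B-2 fold (Anxa2, S100a4 and S100a6) and for Anxa1, which went the other way. They are RefSeq sequences on GRCm38.p6, a build other than the one named in the submitters' processing notes, and 8 of the 10 members matched the promoter table (Anxa6 and S100a10 are named only). Capitals mark a TATA box (TATAAA), a GC box (GGGCGG) or an AP-1 motif (TGANTCA), each searched on both strands.
Anxa2, chr9:69453433-69453682, plus strand: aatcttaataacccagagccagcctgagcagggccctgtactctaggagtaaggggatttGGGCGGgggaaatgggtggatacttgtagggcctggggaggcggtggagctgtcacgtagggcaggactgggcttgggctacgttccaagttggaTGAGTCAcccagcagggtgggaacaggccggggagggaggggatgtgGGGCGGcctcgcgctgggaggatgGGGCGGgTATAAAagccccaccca
S100a4, chr3:90603520-90603769, plus strand: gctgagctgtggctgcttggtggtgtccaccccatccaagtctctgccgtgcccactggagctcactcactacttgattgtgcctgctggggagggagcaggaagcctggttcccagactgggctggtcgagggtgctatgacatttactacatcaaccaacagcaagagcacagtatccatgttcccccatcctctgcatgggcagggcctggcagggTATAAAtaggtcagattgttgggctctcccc
S100a6, chr3:90612644-90612893, plus strand: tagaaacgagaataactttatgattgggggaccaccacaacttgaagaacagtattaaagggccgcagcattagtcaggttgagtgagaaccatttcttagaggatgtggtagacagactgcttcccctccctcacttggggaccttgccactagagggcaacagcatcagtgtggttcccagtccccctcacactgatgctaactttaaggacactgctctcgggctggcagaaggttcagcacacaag
Anxa1, chr19:20390672-20390921, minus strand: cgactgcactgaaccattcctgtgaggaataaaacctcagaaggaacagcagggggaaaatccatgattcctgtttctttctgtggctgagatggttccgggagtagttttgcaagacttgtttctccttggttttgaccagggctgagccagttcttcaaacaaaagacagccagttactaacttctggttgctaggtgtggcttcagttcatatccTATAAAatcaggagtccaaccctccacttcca
The windows of Anxa2, S100a4 and Anxa1 held TATAAA, which 12.37% of the 32851 promoters in the table hold. GGGCGG, held by 32.74% of promoters, occurred 3 times before Anxa2, and TGANTCA, held by 6.749%, occurred once there. The S100a6 window held none of these letters. S100a4 and S100a6 lie on chromosome 3 with S100a5 between them, and S100a11 and S100a10 are neighbours on the same chromosome.

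Classes were gated on UMI sums of lineage markers, none of them a member. The WT library held 10087 barcodes and 81817635 UMIs and the KO library 22516 barcodes and 103953298 UMIs, with medians of 6046 and 2958 UMIs per kept barcode. In WT and KO respectively, the gates held 3319 and 3731 B-1, 955 and 1442 B-2, 1757 and 2500 T, 302 and 437 NK, 78 and 285 macrophage, and 71 and 202 dendritic barcodes. A further 2320 and 8039 B-cell barcodes got no subset, 35.2% and 60.8% of B cells, and depth differed with them, so no statement is made on composition. The libraries shared 293 barcode sequences. Defining markers of fibroblasts and eosinophils were at or under 1.74 CPM in every class, and S100a8 and S100a9 (neutrophil genes of the S100 family) did not exceed 10 UMIs in any class. The mast-cell protease Cma1 gave most of the 191 and 106 CPM of mast-cell markers in NK cells, and Pf4 gave 1381 and 1146 CPM in macrophages. The part of any of these markers in a result was not tested.

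For every member the same class was highest in both libraries: NK cells for Anxa1, Anxa2, Anxa6 and S100a10, macrophages for Anxa4, S100a4 and Ahnak, dendritic cells for Anxa5 and S100a11, and B-1 cells for S100a6. B-2 cells were the lowest class for 6 members (Anxa2, Anxa5, S100a4, S100a10, S100a11 and Ahnak). Levels are in CPM, a depth-scaled count that gives the share of a class's UMIs in that library that fell on the gene, with WT before KO throughout, and serve to compare 1 gene across cells rather than gene with gene. Classes are said to overlap where the ranges spanned by their WT and KO values overlap, and the counting intervals of classes that do not overlap in this sense can still do so.

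Among the annexins, Anxa1 encodes the glucocorticoid-induced annexin that acts on formyl peptide receptors. It was at 614 CPM (568 to 662, exact Poisson 95% interval) and 590 CPM (540 to 642) in NK cells, 332 and 324 in macrophages, 208 and 236 in dendritic cells, 72.0 and 67.9 in T cells, 44.0 and 58.5 in B-2 cells and 20.6 and 37.6 in B-1 cells. The order of the 6 classes was identical in both libraries, a 29.7-fold span in WT and 15.7-fold in KO. Anxa2 encodes the phospholipid-binding partner of S100a10. It was at 1173 and 1175 CPM in NK cells, 912 and 817 in dendritic cells, 750.2 and 784 in macrophages, 389 and 353 in B-1 cells, 224 and 286 in T cells, and only 81.4 and 96.0 in B-2 cells. The counting intervals of T and B-2 cells overlapped for Anxa1 in KO, and those of macrophages and dendritic cells for Anxa2 in KO. For Anxa2, B-1 cells lay well above B-2 cells in both libraries.

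Anxa4, an annexin best known from secretory epithelia, was at 95.8 and 91.4 CPM in macrophages, 41.3 and 45.3 in dendritic cells, 21.4 and 22.2 in B-1 cells, 21.1 and 24.9 in B-2 cells, 5.45 and 9.70 in T cells and 6.42 and 5.54 in NK cells. The NK values rest on 7 and 5 UMIs, and B-1 overlapped B-2 as T overlapped NK. Anxa5, whose protein binds phosphatidylserine and is used to stain dying cells, was at 463 and 471 CPM in dendritic cells and 397 and 468 in macrophages, which overlapped. It was at 129.99 and 119 CPM in B-1 cells, 95.5 and 122 in T cells, 103 and 97.5 in NK cells, all of which overlapped their neighbours, and 78.9 and 77.1 in B-2 cells. Anxa6, an annexin of endosomes and the cell cortex, ran the other way across lineages, with 441 and 321 CPM in NK cells and 316 and 263 in T cells against 97.0 and 105 in macrophages and 98.5 and 86.6 in dendritic cells. B cells lay between, at 180.2 and 123 CPM in B-1 and 151 and 87.1 in B-2 cells, and B-1, B-2, macrophage and dendritic levels overlapped in that order.

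Of the S100 genes, S100a4 encodes a protein of motile cells. It was at 881 and 872 CPM in macrophages, 659 and 752 in dendritic cells, 331 and 364 in T cells, 240.3 and 253 in B-1 cells, 233 and 145 in NK cells, and 56.6 and 61.0 in B-2 cells. The WT values of B-1 and NK cells lay within counting error of each other, and B-2 cells were 15.6-fold and 14.3-fold under macrophages. S100a6 was the member that peaked in B-1 cells, at 3912 CPM (3893 to 3932) and 3709 CPM (3687 to 3732). It was at 1641 and 1729 CPM in macrophages, 1188 and 1451 in dendritic cells, 1043 and 1139 in B-2 cells, 927 and 1110.0 in T cells and 872 and 1022 in NK cells, where the last 3 classes overlapped.

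S100a10, the S100 protein held active without calcium, was at 1960.4 and 1893 CPM in NK cells, 1208 and 1571 in T cells, 952 and 1055 in B-1 cells, 833 and 912 in macrophages, 800.3 and 666 in dendritic cells and 580.1 and 656 in B-2 cells. S100a11 was at 1262 and 1354 CPM in dendritic cells, 838 and 1003 in T cells, 927 and 857 in NK cells, 777 and 808 in B-1 cells, 624 and 670.2 in macrophages and 562 and 583 in B-2 cells. Its T and NK levels overlapped. It had the narrowest span of the 10 members, 2.25-fold in WT and 2.32-fold in KO. Ahnak was at 1552 and 1442 CPM in macrophages and 1461 and 1412 in NK cells, which overlapped. Its B-1, dendritic and T values also overlapped, at 880.2 and 912, 904 and 706, and 644 and 760.2 CPM, and B-2 cells were lowest at 499.5 and 489 CPM.

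**Figure D1:**
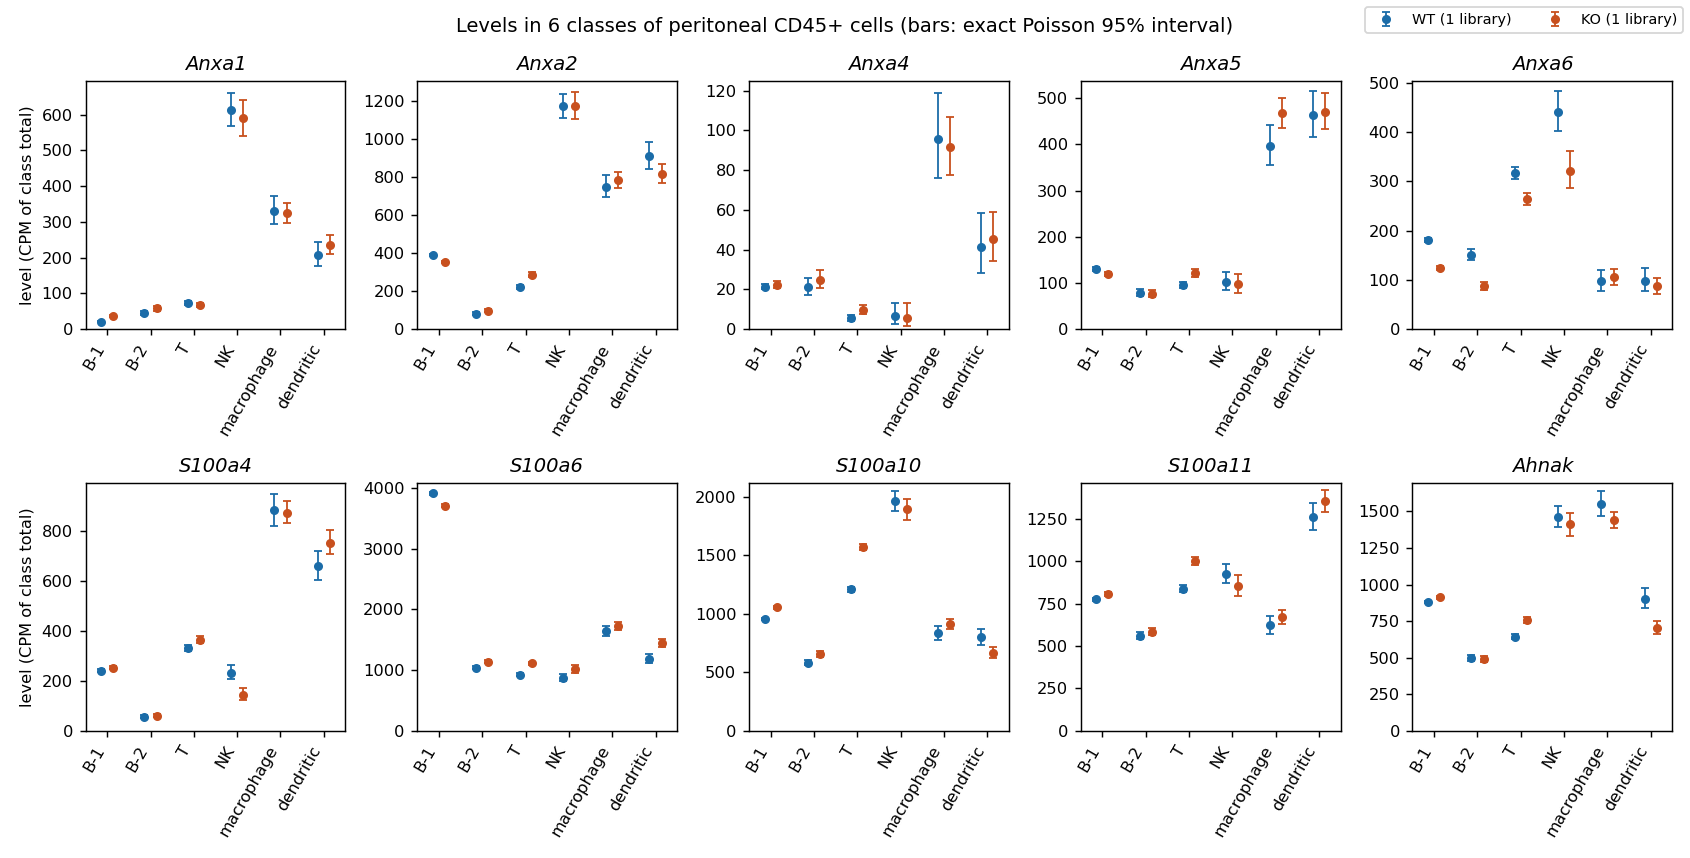
Level of each member (y axis, CPM of the class total) in 6 gated classes (x axis) in the WT and KO libraries; points are single libraries and bars exact Poisson 95% intervals. S100a6 stands highest in B-1 cells at 3912 and 3709 CPM, whereas Anxa1, Anxa2, Anxa6 and S100a10 stand highest in NK cells.

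B-1 cells are innate-like B cells that live in the body cavities and secrete natural IgM antibodies. They held more of most members than the B-2 cells of the circulating follicular pool. Of the 10 members, 8 were higher in B-1 cells, 1 was lower and 1 was not called, by edgeR's quasi-likelihood test on library and class sums with Benjamini-Hochberg adjustment over all genes tested. Among the 11564 genes of the fit, 15.0% were higher and 8.84% lower. The members' median log2 fold change was 0.86, beside 0.04 over all genes. The members were chosen with earlier results of these data known, so these counts describe them and are no test of the set. The WT and KO libraries are the only repeats of each class. The test's spread is what differs between them beyond a shift shared by all classes, which the library term takes out. On the plain CPM scale the median gene lay at −0.17 and −0.12 in B-1 against B-2 cells and at 0.16 and 0.17 in NK against T cells (log2, WT and KO), whereas edgeR's scaling put these medians at 0.04 and −0.02.

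Anxa2 showed a log2 fold change of 2.24 ± 0.12 (SE, n = 2 libraries, edgeR adjusted p = 8.4e-08), S100a4 2.24 ± 0.15 (adjusted p = 3.6e-07) and S100a6 1.98 ± 0.11 (adjusted p = 9.8e-08). These 3 were the members with the widest gap between the B-cell subsets. With Cd55 as a further B-2 marker these gaps shrank to 1.62, 0.96 and 1.16 in the order named, and gates on thinned counts widened that of S100a6 to 2.71, all still called by edgeR. Ahnak followed at 1.03 ± 0.10, S100a10 at 0.87 ± 0.11, Anxa5 at 0.85 ± 0.11, S100a11 at 0.64 ± 0.08 and Anxa6 at 0.54 ± 0.12, and their adjusted p-values ran from 1.2e-05 (Ahnak) to 0.0069 (Anxa6). Anxa6 was not called without the library term (adjusted p = 0.15) or with Cd55 as a further B-2 marker in the gate (adjusted p = 0.081). Anxa4 did not pass at 0.10 ± 0.14 (adjusted p = 0.68).

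Anxa1 was lower in B-1 cells by edgeR, at −0.67 ± 0.20 (adjusted p = 0.028), and its levels of 20.6 and 37.6 CPM in B-1 cells lay below the 44.0 and 58.5 CPM of B-2 cells. That call was lost without doublet removal (adjusted p = 0.087), without the library term (adjusted p = 0.069), with each barcode thinned to 1500 UMIs (adjusted p = 0.21) and with gates on thinned counts (adjusted p = 0.61). Among cells whose heavy chain used neither Ighv11-2 nor Ighv12-3, Anxa1 was at 38.2 and 66.7 CPM in B-1 cells against 44.4 and 60.2 in B-2 cells. The B-1 to B-2 ratio there was 0.862 (0.716 to 1.04, exact 95% interval) in WT and 1.11 (0.932 to 1.32) in KO, both of which take in 1. In the same cells S100a4 stood at 318 and 297 against 31.1 and 47.7 CPM, a ratio of 10.2 (8.44 to 12.5) in WT and 6.23 (5.25 to 7.43) in KO.

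Barcode shares gave the same picture for S100a6. With each barcode thinned to 1500 UMIs, 92.5% (91.5 to 93.3, Clopper-Pearson 95%) of WT and 94.2% (93.4 to 94.9) of KO B-1 barcodes had an S100a6 UMI, against 40.9% and 50.04% of B-2 barcodes. Unthinned, the shares were 98.2% and 97.9% in B-1 and 57.4% and 61.7% in B-2. As a measure of free RNA, Cd79a, which T cells lack, had a UMI in 2.34% of WT and 9.79% of KO T barcodes after thinning, at medians of 4504 and 2526 UMIs against 9948 and 6274 in B-1 and 4136 and 2902 in B-2 barcodes. Thinning left out 7 of the WT and 25 of the KO B-1 barcodes and 8 and 171 of the B-2 barcodes.

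Cytoskeletal and other family genes in the lists mostly went with the members, beside 15.0% of all genes tested by edgeR that were higher. Few partners and receptors were called, with a median log2 fold change of 0.11, but not all of them could be judged. Fpr1 and Fpr2 had 0 UMIs in B-1 and B-2 cells of both libraries, and Myof and Pla2g4a were at or under 1.66 CPM there. All 11 genes of the list called cytoskeletal here were higher in B-1 cells. The largest folds were those of Lgals1 (galectin-1) at 1.98, Itgb1 (integrin beta-1) at 1.93, Crip1 at 1.30 and Lgals3 (galectin-3) at 1.24 on the log2 scale. The list was drawn up as genes co-expressed in activated lymphocytes and also holds Klf2 (0.47), which is not a cytoskeletal gene. It was chosen with earlier results of these data known, so its count is no test of the set. Of 11 partners and receptors, 9 could be tested and 2 were higher, namely Ahnak2, a relative of Ahnak, at 4.39 ± 0.21 and the plasminogen receptor gene Plgrkt at 0.60 ± 0.10. Ahnak2 was at 79.9 and 62.9 CPM in B-1 cells and 4.55 and 3.14 CPM in B-2 cells, and at or under 2.31 CPM in the other 4 classes. Of 19 other annexin and S100 genes, 6 could be tested and 5 were higher in B-1 cells: S100a1 at 1.71, Anxa11 at 0.72, S100a13 at 0.59 and Anxa7 at 0.39, with S100a5, named after its values were seen, under 10 CPM in every class. The gene not called by edgeR was Anxa3, at −0.35 ± 1.43 (adjusted p = 0.90). It had 6 and 8 UMIs in B-1 and 0 and 3 in B-2 cells, too few to give a direction, and was found mainly in macrophages at 174 and 204 CPM.

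**Figure D2:**
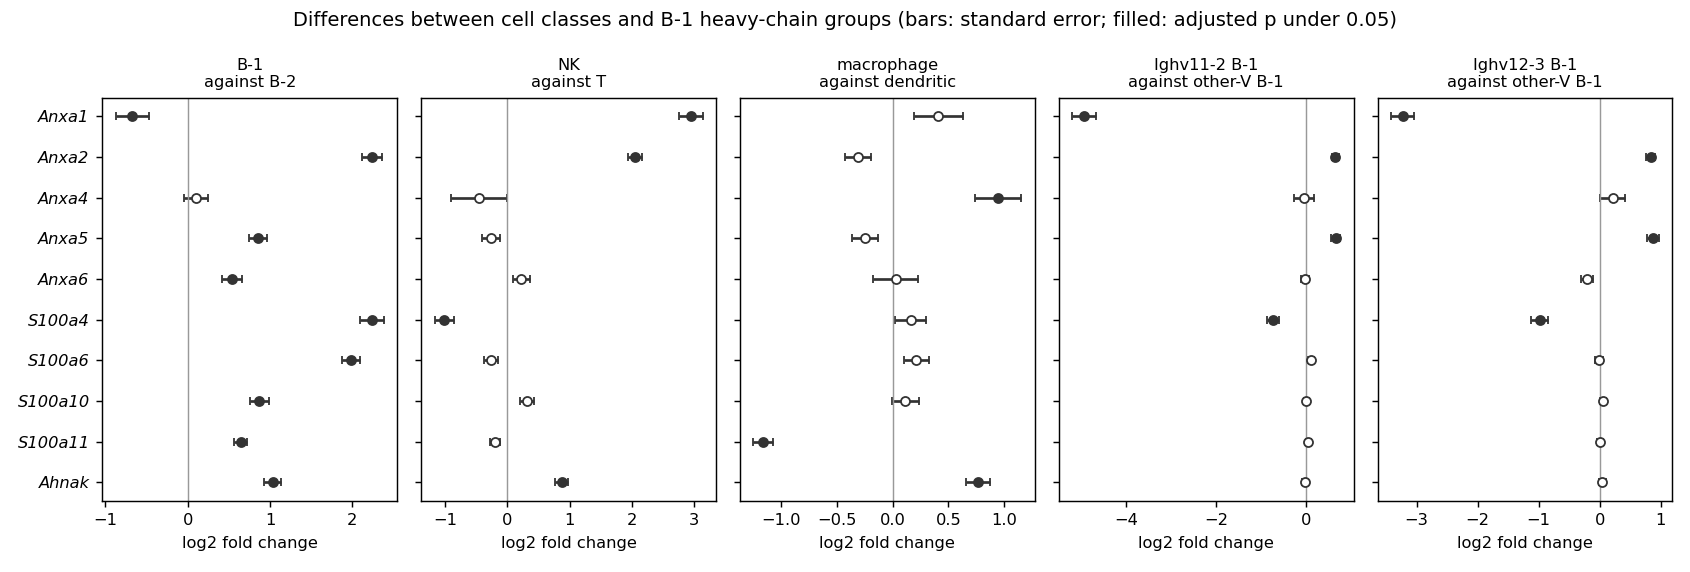
Log2 fold change (x axis) of each member (y axis) in 5 comparisons, with standard errors; filled points passed an adjusted p of 0.05. In B-1 against B-2 cells, 8 filled points lie to the right and Anxa1 to the left, and both heavy-chain panels show Anxa1 at −4.93 and −3.23.

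Heavy chains separated B-1 cells further. Ighv11-2 and Ighv12-3 are the V genes of the natural antibodies to phosphatidylcholine, and nearly all subset-gated barcodes with them were B-1. That split is no finding, because Fcer2a and Cr2 were kept as B-2 markers for being near 0 in these very barcodes. There were 355 and 292 B-1 barcodes for Ighv11-2 and 395 and 399 for Ighv12-3, against at most 4 B-2 barcodes in any library. The commonest heavy-chain CDR3 of each is shown, since barcodes that share it may come from 1 clone and are not independent. All letters are in lower case, because no motif was searched in them.
Ighv11-2 CDR3: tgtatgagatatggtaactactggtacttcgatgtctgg
Ighv12-3 CDR3: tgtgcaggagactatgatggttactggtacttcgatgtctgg
The first was 39 bases long and carried by 143 of 355 WT and 120 of 292 KO B-1 barcodes with Ighv11-2. The second was 42 bases long and carried by 53 of 395 and 79 of 399 barcodes with Ighv12-3.

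Within B-1 cells, Anxa1 was near 0 in cells with these V genes. It was at 1.60 and 1.18 CPM in Ighv11-2 cells (6 and 2 UMIs) and 4.75 and 5.50 CPM in Ighv12-3 cells (19 and 13 UMIs), against 38.2 and 66.7 CPM in B-1 cells with other V genes. By edgeR the log2 fold changes were −4.93 ± 0.26 for Ighv11-2 (adjusted p = 1.5e-06) and −3.23 ± 0.19 for Ighv12-3 (adjusted p = 2.0e-06). With 1 barcode per clone they were −4.37 and −2.59, both still called, and for Ighv12-3 the adjusted p was 0.0502 when the gate was applied to thinned counts. Without doublet removal the fold changes were −3.44 and −2.24 and with the stricter gate −5.76 and −4.19, all called by edgeR. Without the WT library that of Ighv11-2 was −5.82, a value with no test, and with gates on thinned counts −6.62 (adjusted p = 0.049). In the 143 WT barcodes that share the Ighv11-2 sequence above, no Anxa1 UMI was counted, and in the 120 KO barcodes 2 were.

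Against other-V B-1 cells, 2 members were higher and 2 lower in each V-gene group, beside 2.17% higher and 3.32% lower of 10063 genes for Ighv11-2 and 5.02% and 5.32% for Ighv12-3. The members were the same in both groups. Anxa2 was at 480.0 and 469 CPM in Ighv11-2 cells, 551 and 540.5 in Ighv12-3 cells and 319 and 311 in other-V cells, with log2 fold changes of 0.65 ± 0.08 and 0.84 ± 0.07. Anxa5 was at 166 and 151, 172 and 204, and 111 and 98.6 CPM in the same order, with 0.66 ± 0.10 and 0.87 ± 0.10. S100a4 was lower, at 161 and 201, 126 and 184, and 318 and 297 CPM, with −0.73 ± 0.14 and −0.98 ± 0.14. All 6 adjusted p-values were at or under 0.0095.

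With 1 barcode per clone the Ighv11-2 calls of Anxa2 (0.65, adjusted p = 0.098) and Anxa5 (0.35, adjusted p = 0.68) were lost, and with gates on thinned counts they were lost too (adjusted p = 0.081 and 0.25). The Ighv11-2 call of S100a4 was lost without doublet removal (adjusted p = 0.061), without the library term (adjusted p = 0.11) and with gates on thinned counts (adjusted p = 0.083). The other 6 members were not called in either group, and S100a6 moved by only 0.11 ± 0.06 and −0.02 ± 0.06. Of the 11 cytoskeletal genes, 2 were higher and 1 lower with Ighv11-2 and 5 higher and 1 lower with Ighv12-3, and Lgals3 at −1.86 ± 0.18 was the lower gene of the first. Ahnak2 was higher in both, at 1.10 ± 0.12 and 1.91 ± 0.11, and was the sole partner called. Of the other annexin and S100 genes, 5 could be tested, none was called with Ighv11-2 by edgeR, and with Ighv12-3 S100a1, S100a13 and Anxa11 were higher and S100a5 lower.

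Single V genes were compared next. Across the 32 V genes with at least 50 B-cell barcodes in each library, subsets pooled, Anxa1 was lowest in Ighv11-2 (1.66 and 1.70 CPM) and next lowest in Ighv12-3 in both libraries, beside medians of 34.5 and 57.0 CPM. Anxa2 was highest in Ighv12-3 (533 and 502 CPM) and second in Ighv11-2 in both, beside medians of 213 and 197 CPM. Anxa5 had the same order, with 165 and 191 CPM in Ighv12-3 beside medians of 98.9 and 91.0. S100a4 did not stand apart in both libraries: counted from the lowest, Ighv11-2 was at rank 10 in WT and 17 in KO, and Ighv12-3 at rank 1 and 15. S100a6 was highest in Ighv11-2 in both libraries, at 3877 and 3716 CPM against medians of 2668 and 2437. The pooled B cells of other V genes include B-2 cells, and within B-1 cells S100a6 did not pass for either V gene.

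**Figure D3:**
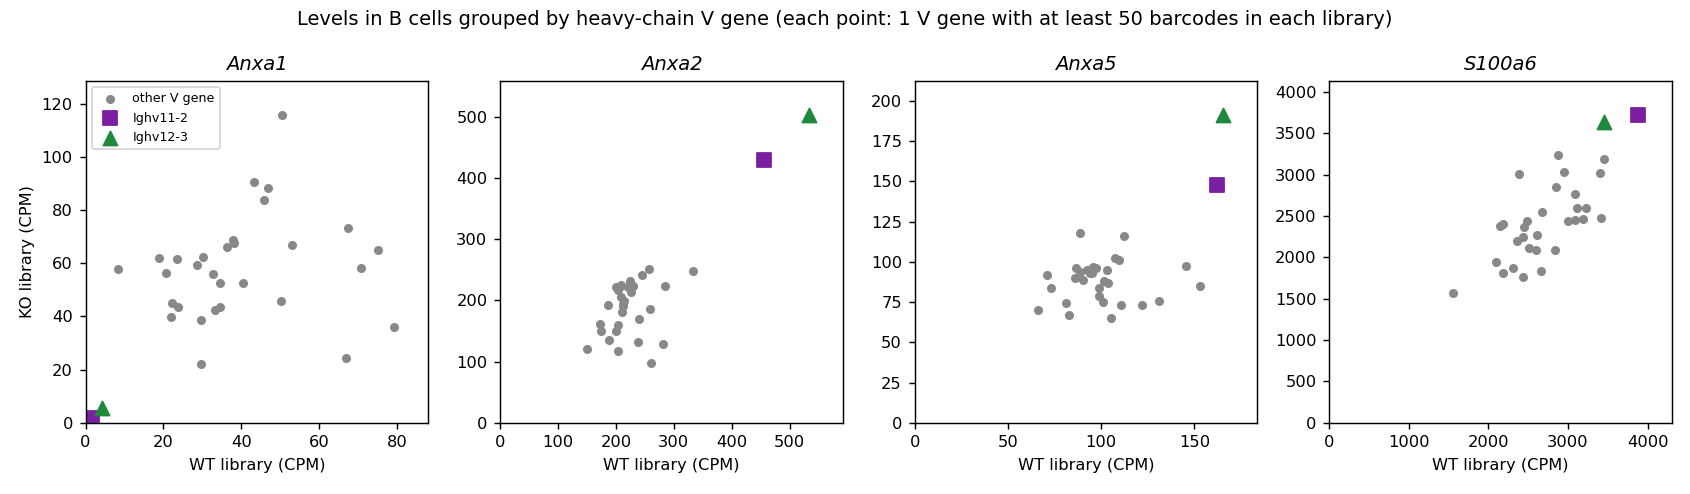
Levels of 4 members in B cells grouped by heavy-chain V gene, WT library on the x axis and KO library on the y axis, both in CPM; each point is 1 of 32 V genes. Ighv11-2 and Ighv12-3 sit at the lower left for Anxa1 and at the upper right for Anxa2, Anxa5 and S100a6.

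B cells whose receptor contig was IgD, the isotype of mature naive cells, had lower levels of most members than those with IgM. The isotype groups pool B-1 cells, B-2 cells and B cells without a subset. Most members differed between B-1 and B-2 cells, and the part of that difference in the IgD, IgM and switched values was not tested. S100a6 was at 338 and 538 CPM with IgD against 2999 and 2704 with IgM, S100a4 at 2.38 (1 UMI) and 41.7 against 193 and 184, and Anxa2 at 33.3 and 86.1 against 293 and 239. Of the 10 members, 9 were below their IgM level in each library, whereas 62.5% of all genes in WT and 59.3% in KO were above it. At least 2-fold below were 3 members, beside 5.92% and 4.56% of genes. In class-switched B cells 6 members were above and 4 below their IgM level in each library, beside 56.6% and 53.0% of all genes above. S100a10 was 1.49-fold (1.35 to 1.64) and 1.45-fold (1.33 to 1.57) its IgM level and Anxa6 1.84-fold (1.496 to 2.24) and 1.68-fold (1.33 to 2.11). Anxa2 was also above it, at 1.30-fold (1.08 to 1.55) and 1.61-fold (1.38 to 1.88). S100a6, at 0.567 and 0.814 of the IgM level, and S100a4, at 0.496 (0.336 to 0.704) and 0.640 (0.476 to 0.843), were below. The IgD groups held 118 and 345 barcodes and the switched groups 54 and 115, and these values have no test.

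NK cells, the innate killers, were set against T cells in the same fit. Here 3 members were higher and 1 lower in NK cells, beside 10.1% higher and 11.2% lower of all genes tested by edgeR. Anxa1 was higher by 2.94 ± 0.19 on the log2 scale (adjusted p = 2.7e-07), Anxa2 by 2.05 ± 0.12 (adjusted p = 7.4e-08) and Ahnak by 0.87 ± 0.10 (adjusted p = 4.5e-05). S100a4 was lower by edgeR, at −1.01 ± 0.16 (adjusted p = 0.00040). S100a10 missed the threshold at 0.32 ± 0.11 (adjusted p = 0.060), and it passed with DESeq2 (adjusted p = 0.037), with thinning (adjusted p = 0.046) and without the low-count filter (adjusted p = 0.011). B-cell markers in NK cells summed to 45.9 and 197 CPM, and their part in these values was not tested. Of the 11 cytoskeletal genes, Lgals1 at 0.58 was higher and Capg at −1.40 and Crip1 at −0.97 were lower, and of the 6 other family genes tested S100a1 at 1.93 was higher. None of the 9 partners tested was called by edgeR, but Fpr1 and Fpr2 had 0 UMIs in both classes and Myof and Pla2g4a had 0 in NK cells.

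T cells were not uniform. Split by marker UMIs into naive-like cells (Ccr7, Lef1 and Dapl1) and effector-like cells (Ccl5, Cxcr6, Il2rb, Nkg7 and Icos), all 10 members were higher in the effector-like cells of both libraries, where 68.0% and 64.4% of all genes were. At least 2-fold higher were 8 members in WT and 7 in KO, against 6.82% and 6.87% of genes. The median log2 difference of the members was 1.78 and 1.61, beside 0.17 and 0.14 over all genes.

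The gap was widest for Anxa1, at 2.93 and 7.22 CPM in naive-like (only 7 and 8 UMIs) and 105 and 83.2 CPM in effector-like cells. Its folds were 35.9 (17.3 to 89.8) in WT and 11.5 (5.80 to 26.9) in KO, where the interval overlapped that of S100a4. S100a4 went from 42.3 and 75.8 to 453 and 432 CPM, a 10.7-fold (8.77 to 13.2) and 5.70-fold (4.59 to 7.17) gap, and S100a6 from 162 and 293 to 1246 and 1297 CPM. Anxa2 and Ahnak were 6.21-fold and 4.44-fold higher in WT and 4.81-fold and 3.86-fold in KO. The least were Anxa5 at 1.62-fold and 1.33-fold and Anxa6 at 1.79-fold and 1.62-fold. The groups held 497 and 373 naive-like and 1155 and 1939 effector-like barcodes, and 244 and 449 barcodes lay within 1 UMI of the dividing line. These folds are within libraries and have no test.

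Macrophages exceeded dendritic cells in 2 members and fell below them in 1, beside 9.69% higher and 9.97% lower of all genes tested by edgeR. Anxa4 was higher at 0.95 ± 0.21 on the log2 scale (adjusted p = 0.0058) and Ahnak at 0.76 ± 0.11 (adjusted p = 0.00023), whereas S100a11 was lower at −1.16 ± 0.09 (adjusted p = 1.2e-06). Anxa4 was not called with thinned barcodes (adjusted p = 0.067) or with gates on thinned counts (adjusted p = 0.48). Of the other annexin and S100 genes, 4 of the 6 tested were higher in macrophages, led by Anxa3 at 3.51 ± 0.39, as were 5 of the 11 cytoskeletal genes (1 was lower) and 4 of the 9 partners tested (1 was lower). The formyl peptide receptor genes Fpr1 and Fpr2, whose products bind annexin A1, had UMIs only in macrophages among the 6 classes, 8 and 45 for Fpr1 and 3 and 30 for Fpr2.

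Small macrophages (marked by Ccr2, Retnla and Cd226), which arise from blood monocytes, were compared with the resident large macrophages (marked by Gata6, Timd4, Icam2, Alox15 and Selp). Of the members, 5 were at least 2-fold higher in the small cells of each library, against 12.5% of genes in WT and 7.93% in KO. S100a6 was at 2485 and 2209 CPM in small and 510 and 820 in large macrophages, S100a4 at 1327 and 1107 against 285 and 420.1, and Anxa5 at 591 and 602 against 132 and 204. Anxa2 was 2.87-fold (2.37 to 3.503) and 2.47-fold (2.14 to 2.86) higher, and S100a11 2.51-fold (2.05 to 3.10) and 2.13-fold (1.84 to 2.48). Anxa1 was alike in both, at 329 and 327 against 337 and 323 CPM, a ratio of 0.976 (0.767 to 1.24) in WT and 1.01 (0.847 to 1.21) in KO. The groups are small, 48 and 184 small and 29 and 87 large macrophages, and 4 and 34 barcodes lay within 1 UMI of the dividing line.

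**Figure D4:**
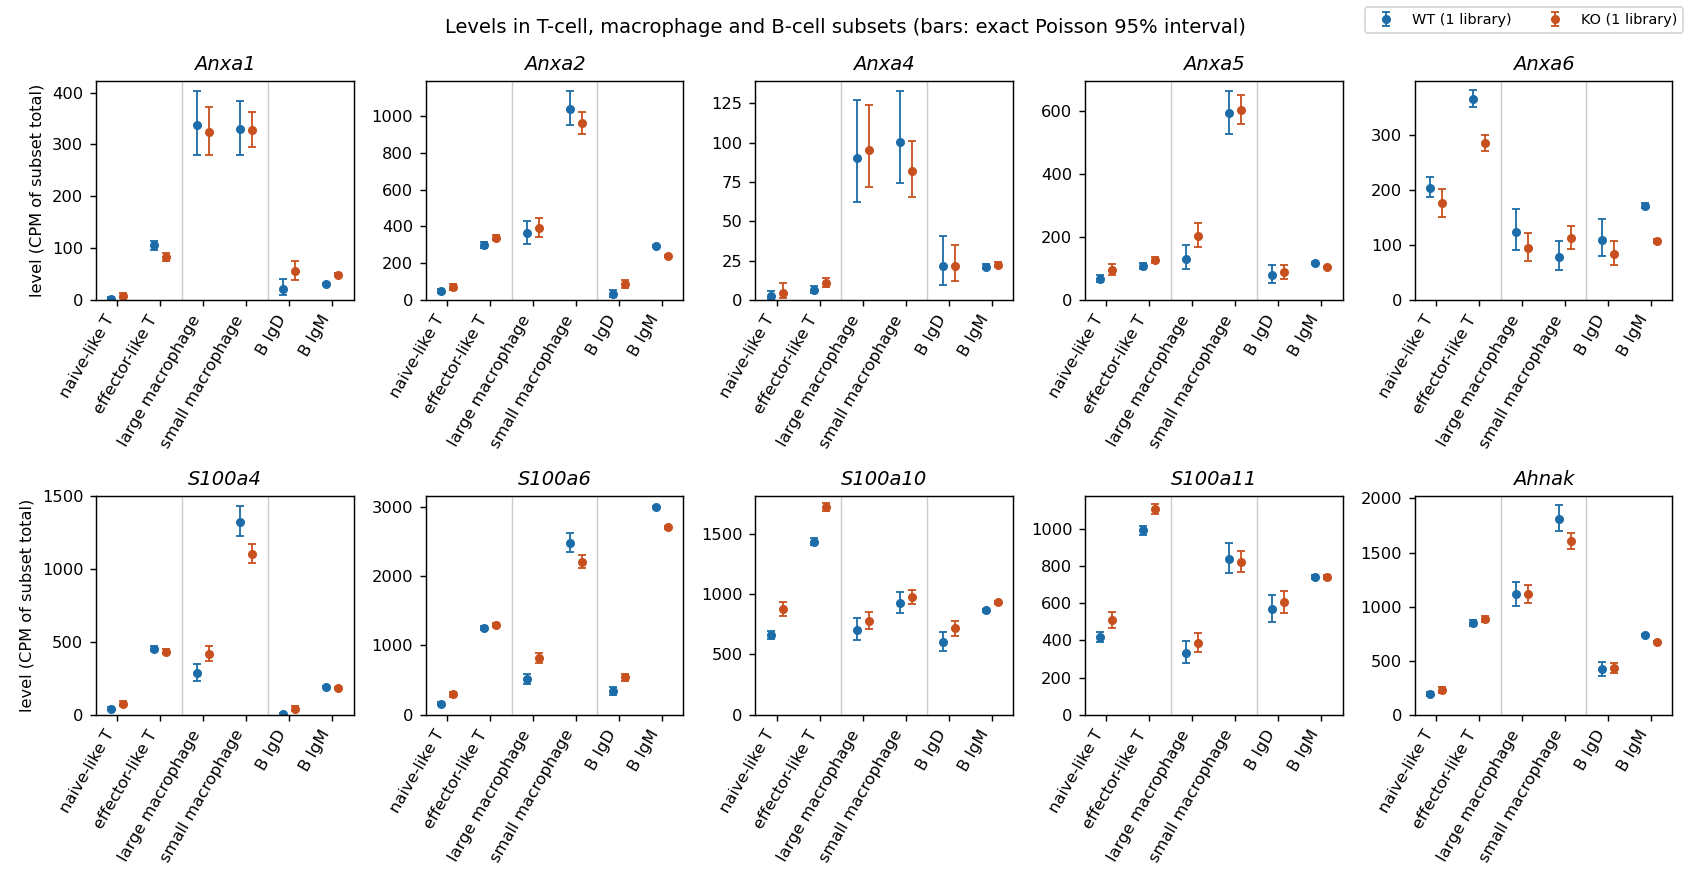
Level of each member (y axis, CPM of the subset total) in T-cell, macrophage and B-cell subsets (x axis) in the WT and KO libraries, with exact Poisson 95% intervals. Effector-like T cells lie above naive-like T cells in every panel, and small macrophages lie above large ones for S100a4, S100a6, Anxa2, Anxa5 and S100a11.

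Between the genotypes most members stayed close. A member counted as past the fold where the ratio of CPM, KO to WT or WT to KO, was at most 0.8, its exact 95% interval left out 1 and the gene reached 10 CPM in a library. In B-1 cells 1 member was higher and 1 lower in KO, beside 4.25% and 2.60% of genes; in B-2 cells 1 and 1, beside 3.46% and 5.09%. In T cells 3 were higher and 0 lower (7.22% and 4.45% of genes), in NK cells 0 and 2 (4.76% and 3.47%), in macrophages 0 and 0 (5.24% and 6.09%), and in dendritic cells 0 and 1 (4.20% and 6.62%).

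Anxa6 was the member past the fold in the most classes, lower in KO in 3 of 6. In B-1 cells it was at 180.2 CPM in WT and 123 in KO, a ratio of 0.683 (0.656 to 0.712), and in B-2 cells at 151 and 87.1, a ratio of 0.578 (0.513 to 0.652). NK cells had 441 and 321 CPM, a ratio of 0.728 (0.627 to 0.844), and T cells 316 and 263, a ratio of 0.834 that did not pass the fold. In the myeloid classes the intervals took in 1, with ratios of 1.08 (0.828 to 1.42) in macrophages and 0.879 (0.649 to 1.20) in dendritic cells.

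Lower Anxa6 in KO B cells was also seen in most groups split by receptor: 0.590 (0.499 to 0.694) in Ighv11-2 B-1 cells, 0.719 (0.620 to 0.833) in Ighv12-3 B-1 cells, 0.688 (0.636 to 0.744) in other-V B-1 cells and 0.519 (0.430 to 0.623) in B-2 cells whose heavy chain occurred once. The groups are splits of the B cells of the same WT and KO library, and some overlap, so they are not independent repeats. The interval took in 1 in IgD B cells, at 0.762 (0.512 to 1.14), and in B-2 cells whose heavy chain recurred, at 0.715 (0.410 to 1.33). Over the alternatives run, the ratio lay between 0.554 and 0.710 in B-1 cells and between 0.519 and 0.617 in B-2 cells.

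Anxa1 was higher in KO B-1 cells, at 37.6 against 20.6 CPM, a ratio of 1.82 (1.66 to 1.998), and in B-2 cells, at 58.5 against 44.0 CPM and 1.33 (1.11 to 1.59). In other-V B-1 cells the ratio was 1.74 (1.53 to 1.99). In Ighv12-3 B-1 cells it was 1.16 and in Ighv11-2 B-1 cells 0.733, on 19 and 13 and on 6 and 2 UMIs, too few to tell from 1. The B-2 ratio did not pass the fold with a looser gate (1.22).

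The T-cell members past the fold were S100a10, at 1208 and 1571 CPM (1.30, 1.27 to 1.34), Anxa2, at 224 and 286 CPM (1.28, 1.20 to 1.36), and Anxa5, at 95.5 and 122 CPM (1.27, 1.16 to 1.40). Split by subset, 5 members were past the fold in naive-like cells, where 6.18% of genes were higher and 3.58% lower, namely Anxa2 (1.46), Anxa5 (1.44), S100a4 (1.79), S100a6 (1.81) and S100a10 (1.33). All 10 members, not only these 5, were higher in effector-like than in naive-like cells of both libraries. The naive-like groups held 497 and 373 barcodes, and 244 and 449 T barcodes lay within 1 UMI of the dividing line. The part of such barcodes in the naive-like ratios was not tested. In effector-like cells Anxa4 (1.62) was higher, beside 5.53% of genes, and Anxa1 (0.789) and Anxa6 (0.781) were lower, beside 4.98%. With both T subsets weighted alike S100a10 was at 1.24 and Anxa2 at 1.18, which left Anxa5 as the sole member past the fold. B-cell markers in T cells also differed, at 38.0 CPM in WT and 126 in KO, and their part in the result was not tested. S100a4 in NK cells was at 233 and 145 CPM, a ratio of 0.623 (0.501 to 0.772). That ratio was 0.897 with thinned barcodes and 1.16 with gates on thinned counts. Thinning left out 11 of the WT and 156 of the KO NK barcodes, so these ratios do not cover the same cells. Ahnak in dendritic cells was at 904 and 706 CPM, a ratio of 0.781 (0.706 to 0.864), and at 0.804 without doublet removal.

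In large macrophages, 3 members were past the fold in KO, where 4.26% of genes were higher and 4.13% lower: S100a6 at 510 and 820 CPM (1.61, 1.35 to 1.91), S100a4 at 285 and 420.1 CPM (1.47, 1.17 to 1.87) and Anxa5 at 132 and 204 CPM (1.55, 1.10 to 2.22). In small macrophages 0 members were past the fold, beside 4.06% of genes higher and 5.74% lower. These 3 were among the 8 members in WT and 9 in KO that were higher in small than in large macrophages. The large groups held only 29 and 87 barcodes. The difference between the subsets was not tested.

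Genes of the companion lists are given for comparison with the same rule. In B-1 cells Lgals3 was higher in KO (1.28, 1.23 to 1.33) and Crip1 (0.791), Lmna (0.745) and Ahnak2 (0.787) were lower. In NK cells Lgals3 (0.558, 0.451 to 0.687), Lgals1 (0.727) and Crip1 (0.790) were lower, alongside S100a4 and Anxa6. In T cells Capg (1.73, 1.59 to 1.88) and S100a1 (1.80, 1.30 to 2.51) were higher. Macrophages held more Lgals1 (1.66), Lgals3 (1.28) and Lmna (1.32) in KO and less Itgb1 (0.725). In dendritic cells Lgals3 (1.43) and Klf2 (1.32) were higher in KO and Cd44 (0.775) was lower. The annexin Anxa3 was lower there too, at 26.6 and 7.95 CPM (0.298, 0.125 to 0.668), on 20 and 10 UMIs. In macrophages the Fpr1 and Fpr2 ratios of 2.79 and 4.95 rest on 8 and 3 WT UMIs. Lgals3 differed in opposite directions in NK cells and in the other 3 classes named, a difference that was not tested.

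**Figure D5:**
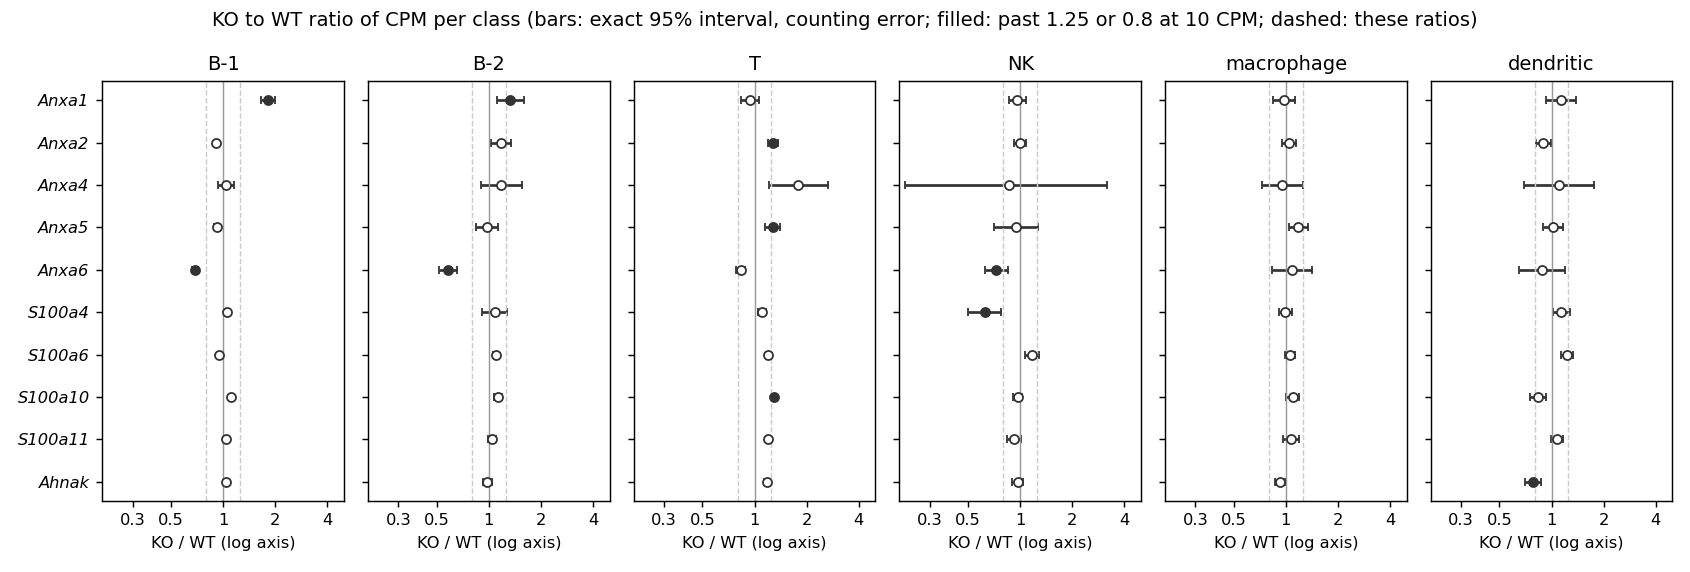
KO to WT ratio of CPM (x axis, log scale) for each member (y axis) in 6 classes, with exact 95% intervals for counting error; filled points are past a ratio of 0.8 in either direction at 10 CPM, and dashed lines mark that ratio. The whole interval of Anxa6 lies left of 1 in B-1, B-2, T and NK cells, and that of Anxa1 right of 1 in B-1 and B-2 cells.

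Members did not share 1 profile over the 12 library and class sums. Against the mean of the members' standardised log2 levels, Anxa2 had a Pearson r of 0.96, Ahnak 0.85 and S100a4 0.83, while Anxa6 had 0.07, S100a6 0.14 and Anxa4 0.24. The closest pairs were Anxa5 with S100a4 (r = 0.87), Anxa6 with S100a10 (0.86) and Anxa2 with Ahnak (0.85). The points are 6 classes in 2 libraries and share depth and gates, so these values describe the profiles and have no test. Among 9237 genes outside the list, the profiles most like the members' mean were Cd9 (0.98), Mettl7a1 (0.97), Cyp4f16 (0.95), Rarg (0.94) and Man1c1 (0.93). Cd9, a tetraspanin, was at 154 and 163 CPM in B-1 cells and 17.4 and 20.2 in B-2 cells, and it was itself a marker of the B-1 gate.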

How the data were processed

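Cell Ranger 6.1.2 produced the expression matrices, per the file headers. In the submitters' processing notes the version is 6.0.1, beside Seurat 4.3.0 and mm39. The deposited values are unnormalised UMI counts per gene and barcode, and the deposited receptor tables give V, J and constant gene and CDR3 per contig. The labels name a 3' kit although receptor libraries were made, so which transcript end the reads cover is not certain, and how that moves single genes was not tested. The knocked-out gene itself and 1 marker gene of B-2 and naive-like T cells were left out and are not reported here.

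Kept barcodes had 200 genes or more and a mitochondrial share below 10%. Scrublet (scanpy 1.11.5) marked 0 barcodes at its automatic threshold, so the top scores were removed up to a share that rises with the number of barcodes (765 in WT and 3970 in KO), leaving 9253 and 18357. Lineage gates needed at least 3 marker UMIs and 80% of them from 1 lineage (NK markers left out of the total for T cells), and NK cells at most 1 CD3 UMI. Subsets needed at least 2 UMIs and 2 times those of the other subset. The B-2 score used Fcer2a and Cr2 and left out Cd55, and the small-macrophage score left out Fn1, choices made after the values were seen: Fcer2a and Cr2 were near 0 in Ighv11-2 and Ighv12-3 barcodes. V genes and isotypes came from barcodes with exactly 1 heavy chain. T and macrophage subsets were split by the larger marker sum. UMIs were summed per library and class and given as CPM.

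Classes were compared with edgeR 4.0.16 (quasi-likelihood, TMM, filterByExpr, library as a covariate, R 4.3.3) on the 12 sums in 1 fit, and B-1 heavy-chain groups in a second fit. The standard error is the log2 fold change over the square root of the F statistic. P-values were adjusted over all genes by Benjamini-Hochberg with a threshold of 0.05. They measure only the spread left between 2 libraries that differ in genotype, after the library term takes out a shift shared by all groups of a fit. Intervals are exact 95% intervals for counting error. Scripts were tested on simulated data. DESeq2 1.42.0 and the other settings are alternatives.

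The members and gene lists were chosen with earlier results of these data known. Named genes were the members in every class, other annexin and S100 genes at 10 CPM or more in a class, up to 4 of each companion list with the largest fold at 10 CPM or more, and the 5 genes with the profile most like the members' mean.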

Additional observations from a re-analysis of the deposited data

How the results depend on the processing

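No paired analysis was possible because each genotype has 1 library. This concerns KO against WT; comparisons between classes pair the classes of a library through the library term, and the values without it are given below. Of the tests and ratios for single members, 997 under the alternatives kept their side of the threshold or stayed within the counting or test error, 149 moved beyond it, 26 changed side and 1 reversed: S100a4 in NK cells, whose KO to WT ratio was 1.16 with gates on thinned counts. The cause was not tested for the shifts below. In KO against WT B-1 cells, 0 members were higher at a 50 CPM minimum. In B-2 cells 3 were higher without doublet removal, at Scrublet's automatic threshold, with thinning and with the stricter gate, 2 with gates on thinned counts, and 0 with the looser gate or single-clone barcodes. In T cells 5 were higher with the stricter gate and 1 with both subsets weighted alike. In NK cells thinning gave 1 higher and 1 lower, and gates on thinned counts 1 higher and 0 lower. In macrophages thinning gave 2 higher and gates on thinned counts 1 lower. In dendritic cells 0 were lower without doublet removal, at Scrublet's automatic threshold and with the looser gate, and 1 was higher with thinning and with the stricter gate.

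For B-1 against B-2, edgeR called 2761 genes, 1785 with thinning and 995 with gates on thinned counts, and 0 members were lower under both, without doublet removal and without the library term. For Ighv11-2 it called 552 genes, 251 with thinning, 909 without the low-count filter, 336 without the library term, 91 with 1 barcode per clone and 75 with gates on thinned counts. Members lower were 1 without doublet removal, without the library term and with gates on thinned counts, and members higher 0 with gates on thinned counts and with 1 barcode per clone. For Ighv12-3 it called 1040 genes, 420 with thinning, 586 with DESeq2, 622 without the library term, 399 with 1 barcode per clone and 120 with gates on thinned counts, which left 1 member lower. For NK against T it called 2459 genes, 1541 with thinning and 1361 with gates on thinned counts, with 2 members lower without the filter and 3 with gates on thinned counts. For macrophages against dendritic cells it called 2273 genes, 830 with thinning and 783 with gates on thinned counts, which left 1 member higher, and 2 members were lower with the stricter gate and without the filter. The class in which a member was highest was the same for 10 of 10 members with the stricter gate and without doublet removal and for 9 with thinning, where Anxa5 was highest in macrophages. Gates on thinned counts, Cd55 as a B-2 marker and single-clone barcodes were alternatives chosen after seeing the data.

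Depth limits the rare classes most: the 71 WT dendritic and 78 WT macrophage barcodes give wide intervals, and Anxa4 in NK cells rests on 7 and 5 UMIs. With 1 library per genotype, a difference between KO and WT cannot be told apart from a difference between these 2 preparations.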

Other observations

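Among B-1 cells of other V genes, cells whose heavy chain recurred in the library were compared with cells whose heavy chain occurred once. In WT, S100a6 was at 3783 CPM in recurring and 3805 CPM in single clones, and in KO at 3829 and 3810 CPM. In these B-1 cells no member differed 2-fold in either library. Anxa1, whose product acts on formyl peptide receptors, was at 24.3 CPM in recurring and 43.3 CPM in single clones of WT (ratio 0.561, 0.430 to 0.723) and at 63.3 and 69.8 CPM in KO (0.906, 0.754 to 1.09). S100a11 was 1.09-fold (1.04 to 1.14) and 1.15-fold (1.09 to 1.20) higher in recurring clones of both libraries. The groups held 366 and 828 recurring and 1005 and 601 single-clone barcodes, and recurring barcodes share their receptor and are not independent. In B-2 cells S100a6 was higher in recurring than in single clones, 1.59-fold (1.35 to 1.87) in WT and 1.33-fold (1.23 to 1.43) in KO. S100a4 was 1.72-fold (1.22 to 2.42) higher in KO, and in WT it rests on 3 UMIs in recurring clones. Anxa1 was at a ratio of 0.173 (0.00434 to 0.977) in WT, on 1 UMI in recurring clones, and 1.15 (0.839 to 1.58) in KO. These B-2 groups held 29 and 446 recurring and 763 and 575 single-clone barcodes.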
